A study of Mus musculus with 30 samples.

Results

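The acyl-CoA thioesterases described here are the 10 genes Acot1, Acot2, Acot3, Acot4, Acot7, Acot8, Acot9, Acot11, Acot12, and Acot13. They were taken with every probe set annotated to one of them alone, from a list chosen with earlier results of these data known. They were 10 of the 18193 genes that the arrays named, and 15 probe sets read them. Expression was measured in left-lobe liver RNA of male mice at 6 to 9 months of age that were gavaged for 7 days with perfluorooctane sulfonate (PFOS, potassium salt) in a Tween 20 solution or with the vehicle alone. PPARα-null mice (Null, 129S4/SvJae-Pparatm1Gonz/J) and wild-type mice (WT, 129S1/SvlmJ) each received 0, 3, or 10 mg/kg. Every group held 5 animals, each read on its own Affymetrix array of the mouse genome, which gave 30 arrays for the 6 groups. Null mice carry a germline disruption of Ppara, so all cell types lack the working receptor, and the purchased Null and WT animals came from different substrains before being kept as an inbred colony, so genotype and substrain cannot be told apart. All values are log2 expression values from Robust Multichip Average (RMA) processing, where a difference of 1 is a doubling.

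Acyl-CoA thioesterases split the activated form of a fatty acid, acyl-CoA, into the free acid and coenzyme A, and so oppose the acyl-CoA synthetases. Type I enzymes (Acot1 to Acot6 in mice) share an alpha/beta hydrolase fold and lie side by side as a gene cluster, while type II enzymes (here Acot7, Acot8, Acot9, Acot11, Acot12, and Acot13) have a hotdog fold and are scattered over the genome. The peroxisome proliferator-activated receptor alpha (PPARα) is a fatty acid receptor of the liver that turns on genes of fatty acid oxidation, and several thioesterase genes are textbook targets of it in mice.

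The array labels were checked on Ppara, the disrupted gene, whose 3 probe sets still detect RNA in Null liver. Ppara averaged 8.78 to 9.81 over the 15 Null arrays and 9.93 to 10.77 over 13 WT arrays, but 8.66 and 8.74 in replicates 4 and 5 of WT 0 mg/kg. Cyp2b10, a drug-metabolizing cytochrome P450, was at 12.80 and 12.93 in these same control arrays, against 7.81 to 8.20 in control replicates 1 to 3, 6.78 to 9.06 in Null controls, and 10.47 to 13.19 in Null mice given PFOS. Replicates 4 and 5 thus go against their label on both genes, and calls of members against WT controls are given with and without them. The liver was checked by marker lists. Hepatocyte markers (8 of 10 measured, Alb, Ttr, and Apoa1 among them) averaged 13.41 to 13.69 in the 6 groups. The 3 measured adipocyte markers averaged 4.64 to 4.90, with Adipoq at 3.24, Lep at 3.6, and Fabp4 at 7.33 over all arrays. In bulk liver, fewer cells of a type and less RNA per cell cannot be told apart.

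Because the type I genes moved together in the data, the 250 bases before the start of the 4 type I members are shown, in their order along chromosome 12 of the GRCm38.p6 annotation (Acot2, Acot1, Acot4, and Acot3, with Acot5 and Acot6 beyond), along with that of Acot8 on chromosome 2, the one member whose response was called different between the genotypes at both doses with all 30 arrays. The sequences are from RefSeq, which matched 9 of the 10 members, and belong to the reference strain and not to the strains used. Capitals mark matches on either strand to the CCAAT box, to the TATA box in the form TATAAA, and to the half-site of nuclear receptors such as PPARα, spelled AGGTCA.
Acot2, GRCm38.p6 chr12:83987611-83987860, plus strand: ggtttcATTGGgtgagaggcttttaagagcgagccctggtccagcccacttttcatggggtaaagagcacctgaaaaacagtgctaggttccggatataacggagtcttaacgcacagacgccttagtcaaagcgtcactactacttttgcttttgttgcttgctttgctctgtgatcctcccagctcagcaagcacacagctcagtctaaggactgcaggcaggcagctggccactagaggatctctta
Acot1, GRCm38.p6 chr12:84009252-84009501, plus strand: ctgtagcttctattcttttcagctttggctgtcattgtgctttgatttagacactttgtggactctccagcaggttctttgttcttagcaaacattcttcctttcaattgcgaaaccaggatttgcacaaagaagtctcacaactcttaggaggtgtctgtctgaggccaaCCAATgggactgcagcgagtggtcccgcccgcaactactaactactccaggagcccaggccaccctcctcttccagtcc
Acot4, GRCm38.p6 chr12:84038129-84038378, plus strand: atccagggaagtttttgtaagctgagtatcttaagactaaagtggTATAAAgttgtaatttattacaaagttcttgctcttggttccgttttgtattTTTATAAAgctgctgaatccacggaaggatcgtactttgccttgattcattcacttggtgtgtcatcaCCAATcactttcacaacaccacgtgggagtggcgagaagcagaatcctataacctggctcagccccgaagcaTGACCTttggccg
Acot3, GRCm38.p6 chr12:84051894-84052143, plus strand: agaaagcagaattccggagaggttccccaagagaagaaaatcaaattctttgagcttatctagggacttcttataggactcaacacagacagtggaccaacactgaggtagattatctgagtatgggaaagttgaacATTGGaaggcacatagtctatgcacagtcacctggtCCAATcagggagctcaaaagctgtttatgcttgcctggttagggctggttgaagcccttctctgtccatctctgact
Acot8, GRCm38.p6 chr2:164804882-164805131, minus strand: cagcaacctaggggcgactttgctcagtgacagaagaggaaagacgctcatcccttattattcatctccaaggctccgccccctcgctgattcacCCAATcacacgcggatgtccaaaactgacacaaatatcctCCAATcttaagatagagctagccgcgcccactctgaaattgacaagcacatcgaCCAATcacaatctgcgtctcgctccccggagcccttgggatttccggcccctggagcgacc
None of these windows holds the full repeat AGGTCANAGGTCA, which 0.0335% of 32841 promoter windows of the same length held. The half-site was found once, in Acot4, 13 bases before the start on the minus strand, against 14% of all windows with at least 1. CCAAT was present in all 5 windows (33.9% of all windows), with 3 copies in Acot8, and TATAAA in Acot4 alone among them (12.4% of all windows), where overlapping copies on both strands form 1 of the capital runs. Among windows of the other members, CCAAT was absent from Acot7, Acot12, and 1 Acot11 start site, and present in Acot9 and the other Acot11 start site. These are matches of letters in a short window and say nothing of binding.

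A probe set was tested if 5 or more arrays put it over the overall median of 5.65, a rule that 24069 probe sets met. Of the 15 member probe sets 14 were kept and all 10 genes had at least 1 (1 each for Acot1, Acot3, Acot7, Acot8, Acot9, and Acot13, and 2 each for Acot2, Acot4, Acot11, and Acot12). The exception was 1433064_at, a further Acot12 probe set with group means of 4.15 to 4.30. Differences were tested with limma, p-values were adjusted over all 24069 probe sets, and a probe set was called at an adjusted p under 0.05. Errors given with ± after a mean are SD over 5 arrays.

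Acot1 encodes the cytosolic long-chain acyl-CoA thioesterase. Null arrays read 9.35, 9.38, 8.75, 8.98, and 9.23 at 0 mg/kg, 9.79, 9.98, 10.18, 8.84, and 9.97 at 3 mg/kg, and 10.59, 10.40, 9.98, 9.61, and 10.18 at 10 mg/kg. WT arrays read 6.90, 7.85, 5.96, 10.11, and 10.23 at 0 mg/kg, 10.02, 9.87, 9.92, 9.96, and 9.83 at 3 mg/kg, and 10.66, 11.15, 11.34, 10.79, and 10.96 at 10 mg/kg. The WT controls fell apart into 3 low arrays and the 2 arrays that go against their label, which reached the 3 mg/kg level, while at 10 mg/kg all treated arrays lay above all controls in both genotypes. In Null mice, Acot1 rose by 1.02 ± 0.226 (SE) at 10 mg/kg, a 2.02-fold increase (limma, adjusted p = 0.0137). In WT mice, the rise at 10 mg/kg was 2.77 ± 0.616 (SE), or 6.82-fold (limma, adjusted p = 0.0125), and 4.08 without the doubted replicates 4 and 5 (limma, adjusted p = 7.56e-07). At 3 mg/kg the WT change was 1.71 (limma, adjusted p = 0.741), and 3.02 without these replicates (limma, adjusted p = 0.000106).

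Acot2 encodes the mitochondrial member, which acts on long-chain acyl-CoA in the matrix. By probe set 1439478_at, Null arrays read 8.68, 8.86, 8.85, 8.78, and 8.89 at 0 mg/kg, 9.05, 8.99, 9.33, 8.78, and 9.01 at 3 mg/kg, and 9.65, 9.42, 9.02, 9.01, and 9.52 at 10 mg/kg. WT arrays read 7.92, 8.09, 8.08, 9.75, and 9.67 at 0 mg/kg, 9.44, 9.14, 9.63, 9.64, and 9.75 at 3 mg/kg, and 11.25, 11.55, 11.40, 11.20, and 11.35 at 10 mg/kg. WT mice given 10 mg/kg stood clear of every other array of the study, by more than 1 log2 unit. The rise at 10 mg/kg was 0.51 ± 0.124 (SE) in Null mice (limma, adjusted p = 0.0214) and 2.65 ± 0.309 (SE) in WT mice, or 6.27-fold (limma, adjusted p = 7.38e-05). Probe set 1422996_at gave 0.60 in Null mice and 2.87 in WT mice (limma, adjusted p = 0.0104 and 6.95e-05). Without the doubted replicates the WT rises were 3.32 and 3.55 (limma, adjusted p = 1.5e-09 and 3.3e-08). Acot2 was the one type I gene called between the doses in WT mice with all arrays, with rises of 1.83 and 1.94 for 10 against 3 mg/kg (limma, adjusted p = 0.00528 and 0.00576).

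Acot3 encodes a peroxisomal thioesterase of long- and medium-chain acyl-CoA in mice. Its Null arrays read 7.61, 7.76, 8.03, 8.14, and 8.66 at 0 mg/kg, 8.48, 8.60, 7.88, 8.96, and 9.01 at 3 mg/kg, and 9.30, 8.74, 8.61, 9.12, and 8.89 at 10 mg/kg. Its WT arrays read 7.03, 7.38, 6.06, 9.09, and 8.50 at 0 mg/kg, 8.12, 9.95, 8.84, 8.54, and 8.96 at 3 mg/kg, and 10.39, 9.88, 11.13, 10.24, and 9.82 at 10 mg/kg. At 10 mg/kg the Null arrays overlapped their controls and the WT arrays did not. The rise at this dose was 0.89 ± 0.216 (SE) in Null mice (limma, adjusted p = 0.0209) and 2.68 ± 0.472 (SE) in WT mice (limma, adjusted p = 0.00277), and 3.47 in WT mice without the doubted replicates (limma, adjusted p = 5.2e-05). The Null call was lost by the methods' t-test (adjusted p = 0.0538), with all 30 arrays in the fit (limma, adjusted p = 0.148), and with that fit less the doubted replicates (limma, adjusted p = 0.0511). Its probe set (1422925_s_at) is of the kind that can bind more than one transcript, and whether another cluster gene adds to the signal was not tested.

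Acot4 encodes a peroxisomal thioesterase that acts on succinyl-CoA and on the CoA esters of dicarboxylic acids. Probe set 1422076_at read 8.83, 8.86, 8.90, 8.82, and 9.01 in Null mice at 0 mg/kg, 9.23, 9.45, 9.13, 9.43, and 9.36 at 3 mg/kg, and 9.64, 9.56, 9.27, 9.68, and 9.40 at 10 mg/kg. In WT mice it read 8.04, 8.47, 7.57, 9.47, and 9.17 at 0 mg/kg, 8.91, 9.50, 8.87, 8.87, and 9.00 at 3 mg/kg, and 9.86, 9.79, 10.13, 9.69, and 9.72 at 10 mg/kg. Both doses lay above all controls in Null mice, and Acot4 was the one member called at 3 mg/kg there, with a rise of 0.44 ± 0.0888 (SE) (limma, adjusted p = 0.0128). With all 30 arrays in the fit this call was lost (limma, adjusted p = 0.257) and Acot13 was called in its place, at -0.29 (limma, adjusted p = 0.0349). The second probe set, 1422077_at, changed by 0.34 at this dose (limma, adjusted p = 0.103). At 10 mg/kg Acot4 rose by 0.63 and 0.42 in Null mice (limma, adjusted p = 0.00102 and 0.0325) and by 1.29 and 1.33 in WT mice (limma, adjusted p = 0.00911 and 0.0075). The WT rises were 1.81 and 1.82 without the doubted replicates.

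**Figure D1:**
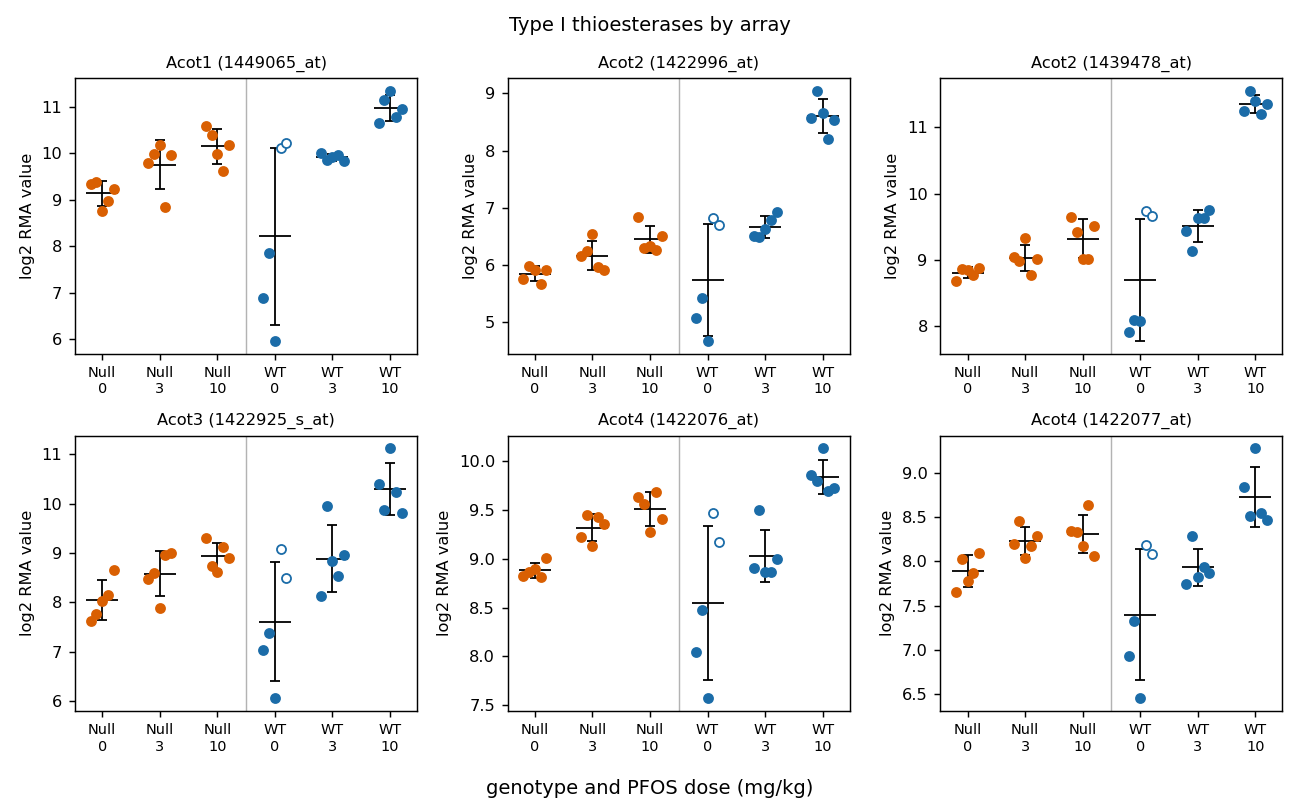
Log2 RMA value of each array for the 6 kept probe sets of Acot1, Acot2, Acot3, and Acot4 by genotype and PFOS dose in mg/kg. Filled points are arrays, open points are replicates 4 and 5 of WT 0 mg/kg, and bars show the mean and SD over 5 arrays. The open points sit near or above the WT 3 mg/kg arrays in every panel, whereas WT 10 mg/kg arrays reach the highest mean of each panel.

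Another probe set, 1422997_s_at, is annotated to both Acot1 and Acot2 and is no member for that reason. Over the 30 arrays it followed the Acot1 probe set with r = 0.992 and the Acot2 probe sets with r = 0.844 and 0.828, and its WT rise at 10 mg/kg was 2.70, and 3.99 without the doubted replicates. The paired probe sets of one gene correlated at 0.988 for Acot2 and 0.970 for Acot4 over the same arrays. These correlations describe arrays that share groups and doses.

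Among type II members, Acot8 gave the clearest separation of the genotypes. It encodes a peroxisomal thioesterase of broad substrate range. Null arrays read 8.68, 8.67, 8.68, 8.80, and 8.61 at 0 mg/kg, 8.40, 8.46, 8.54, 8.43, and 8.57 at 3 mg/kg, and 8.99, 8.80, 8.46, 8.63, and 8.50 at 10 mg/kg. WT arrays read 9.07, 9.10, 8.94, 8.69, and 8.64 at 0 mg/kg, 9.59, 9.37, 9.68, 9.51, and 9.60 at 3 mg/kg, and 10.21, 10.46, 10.20, 9.91, and 10.11 at 10 mg/kg. The 3 WT dose groups did not overlap each other, and no treated WT array overlapped any Null array. In WT mice Acot8 rose by 0.66 ± 0.109 (SE) at 3 mg/kg (limma, adjusted p = 0.0166), by 1.29 ± 0.109 (SE) at 10 mg/kg (limma, adjusted p = 4.48e-06), and by 0.63 between the doses (limma, adjusted p = 0.00652). Without the doubted control replicates, which were the lowest WT arrays here, the first 2 changes were 0.51 and 1.14 and stayed called. The call at 3 mg/kg held in 11 of the 15 runs that left out 1 WT array, and was lost without control replicate 4 or without replicate 1, 3, or 5 of 3 mg/kg (limma, adjusted p up to 0.0737). In Null mice the changes were -0.21 at 3 mg/kg (95% interval -0.40 to -0.01) and -0.01 at 10 mg/kg (95% interval -0.20 to 0.18), and neither was called (limma, adjusted p = 0.243 and 0.97).

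Acot7 encodes a cytosolic long-chain enzyme best known from brain. Its arrays ranged over 8.62 to 8.75, 8.42 to 8.84, and 8.50 to 9.39 in Null mice at 0, 3, and 10 mg/kg, and over 8.46 to 9.02, 8.56 to 8.89, and 8.97 to 9.40 in WT mice. It rose by 0.55 ± 0.116 (SE) in WT mice at 10 mg/kg (limma, adjusted p = 0.00911), although control replicate 5 overlapped the treated arrays, and by 0.73 without the doubted replicates (limma, adjusted p = 0.000312). For 10 against 3 mg/kg the WT rise was 0.45 (limma, adjusted p = 0.037), and this call held in 7 of 15 runs with 1 WT array left out. The Null change at 10 mg/kg was 0.19, with a 95% interval of -0.10 to 0.47 (limma, adjusted p = 0.448).

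Acot9, a mitochondrial thioesterase, ranged over 6.30 to 6.64, 6.34 to 6.66, and 6.34 to 6.87 in Null mice at 0, 3, and 10 mg/kg, and over 6.45 to 6.95, 6.06 to 6.73, and 6.53 to 7.42 in WT mice. The WT change at 10 against 0 mg/kg was 0.45 and missed the threshold (limma, adjusted p = 0.0745, and 0.128 without the doubted replicates), whereas that at 10 against 3 mg/kg was 0.58 and passed it (limma, adjusted p = 0.0431), a call that held in 7 of 15 runs with 1 WT array left out. A probe set shared by Acot9 and Acot10, and so no member, rose by 0.55 in WT mice at 10 mg/kg (limma, adjusted p = 0.0238), and by 0.53 without the doubted replicates (limma, adjusted p = 0.0331).

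Acot12 encodes a cytosolic acetyl-CoA hydrolase of liver. By 1449457_at it ranged over 10.90 to 11.08, 10.76 to 11.12, and 10.81 to 11.30 in Null mice at 0, 3, and 10 mg/kg, and over 10.87 to 11.29, 11.05 to 11.68, and 11.32 to 11.50 in WT mice. The WT rises at 10 mg/kg were small, 0.38 by this probe set and 0.44 by 1419395_at (limma, adjusted p = 0.0379 and 0.00757). Without the doubted control replicates, again the lowest WT arrays, they were 0.26 and 0.36 (limma, adjusted p = 0.12 and 0.0195), so only 1419395_at stayed called. In Null mice both changes were below 0.1.

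Acot11 was the only member with a called fall in WT mice. Acot11 encodes a long-chain enzyme with a lipid-binding START domain, known as brown fat inducible thioesterase. By 1429267_at, Null arrays read 7.34, 7.78, 7.60, 7.41, and 7.59 at 0 mg/kg, 7.87, 8.15, 7.37, 7.45, and 7.20 at 3 mg/kg, and 7.07, 7.36, 7.07, 7.13, and 6.72 at 10 mg/kg. WT arrays read 7.24, 6.95, 7.29, 6.78, and 7.06 at 0 mg/kg, 6.53, 6.08, 6.49, 6.70, and 6.12 at 3 mg/kg, and 6.76, 6.76, 6.60, 6.67, and 6.64 at 10 mg/kg. Treated WT arrays lay below all WT controls at both doses, and no treated WT array reached the Null control range. The WT change was -0.68 ± 0.120 (SE) at 3 mg/kg (limma, adjusted p = 0.0285, and 0.014 for -0.77 without the doubted replicates) and -0.38 at 10 mg/kg (limma, adjusted p = 0.0542, and 0.0186 for -0.47 without the doubted replicates). The call at 3 mg/kg held in 8 of 15 runs with 1 WT array left out, and was lost without control replicate 1, 3, or 5 or without replicate 1, 2, 3, or 5 of 3 mg/kg (limma, adjusted p up to 0.0926). The Null change at 10 mg/kg was -0.48 (limma, adjusted p = 0.0844). The other probe set, 1425667_at, changed by -0.35 in WT mice at 3 mg/kg (limma, adjusted p = 0.358) and -0.07 at 10 mg/kg, and the pair correlated at 0.829.

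Acot13 encodes a mitochondria-associated long-chain thioesterase also named Them2. Null arrays read 10.45, 10.70, 10.63, 10.66, and 10.59 at 0 mg/kg, 10.36, 10.42, 10.43, 10.11, and 10.24 at 3 mg/kg, and 10.37, 10.39, 10.25, 10.06, and 10.30 at 10 mg/kg. WT arrays read 10.56, 10.59, 10.44, 10.49, and 10.55 at 0 mg/kg, 10.57, 10.24, 10.78, 10.66, and 10.63 at 3 mg/kg, and 10.68, 10.63, 10.87, 10.81, and 10.72 at 10 mg/kg. All Null arrays given 10 mg/kg lay below their controls, and all WT arrays given 10 mg/kg lay above theirs. The change was -0.33 ± 0.0839 (SE) in Null mice (limma, adjusted p = 0.0257) and 0.21 ± 0.0858 (SE) in WT mice (limma, adjusted p = 0.114, and 0.156 without the doubted replicates). The Null call held in 10 of 15 runs with 1 Null array left out, and was lost without control replicate 2, 3, 4, or 5 or without replicate 4 of 10 mg/kg (limma, adjusted p up to 0.0681).

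**Figure D2:**
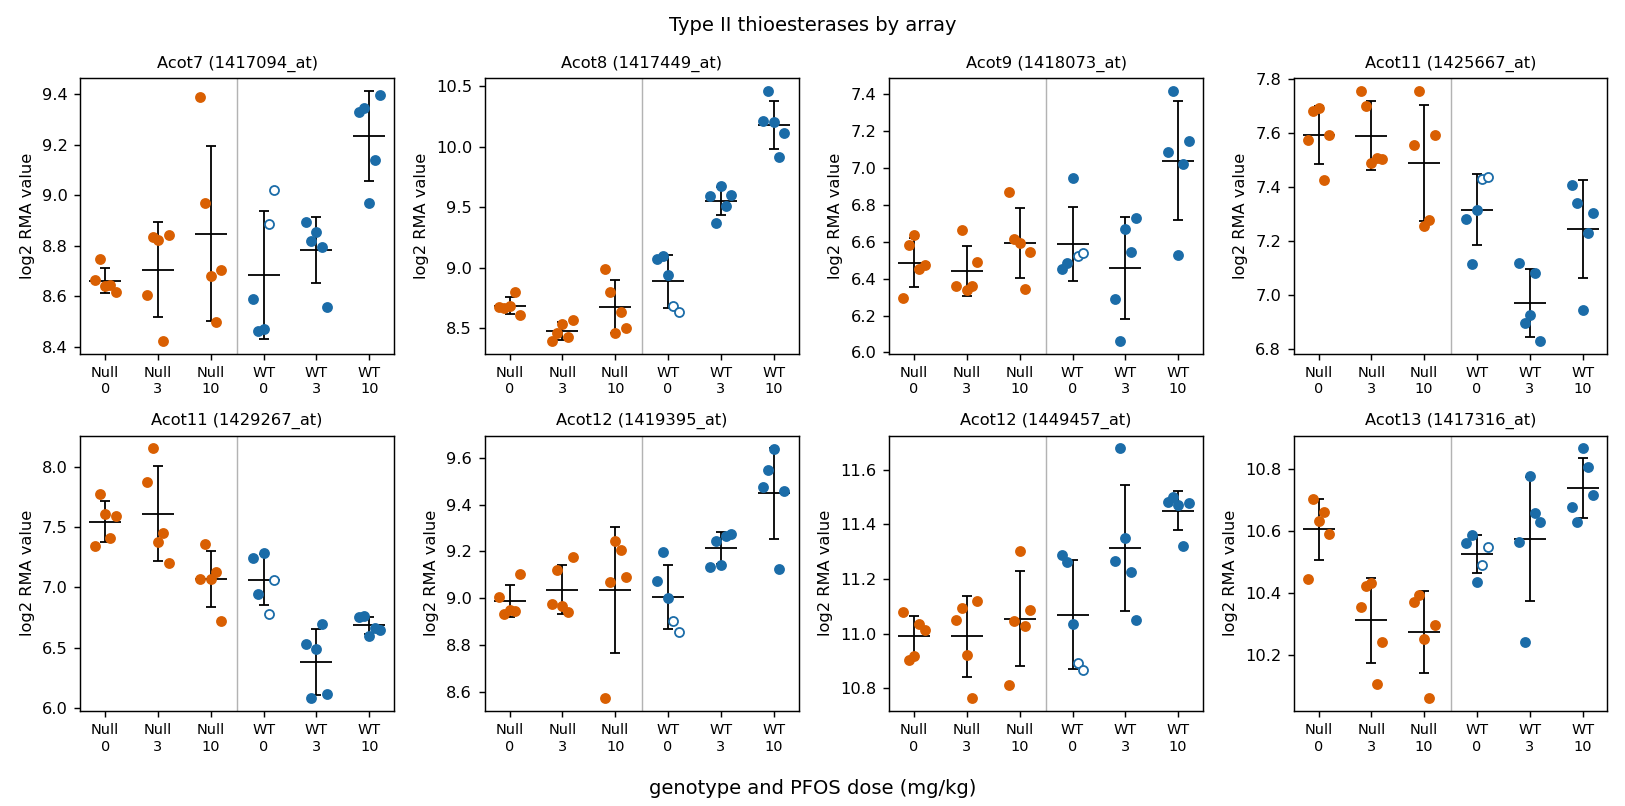
Log2 RMA value of each array for the 8 kept probe sets of Acot7, Acot8, Acot9, Acot11, Acot12, and Acot13 by genotype and PFOS dose in mg/kg. Filled points are arrays, open points are replicates 4 and 5 of WT 0 mg/kg, and bars show the mean and SD over 5 arrays. Acot8 climbs over the WT doses and stays between 8.40 and 8.99 in every Null array, and Acot11 is lower in treated WT than in Null control arrays.

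Counted over the members, Null mice at 3 mg/kg had 1 of 14 probe sets called, higher, where 3.88% of all probe sets were called (1.57% higher). The higher dose gave 7 of 14 called in Null mice, 6 higher and 1 lower, against 7.04% of all probe sets (3.16% higher and 3.88% lower). The median change of the members there was 0.15, and that of all kept probe sets 0. The genes called higher were the 4 type I members, and the gene called lower was Acot13. With all 30 arrays in 1 fit, whose spread then takes in the WT controls, 2 probe sets were called, Acot13 and Acot11 (1429267_at, limma, adjusted p = 0.0396), both lower, and the type I genes were not (limma, adjusted p = 0.0604 to 0.232). With that fit less the doubted replicates, a setting chosen after seeing the data, 6 were called. The methods' t-test called 5 after adjustment, without Acot3 and Acot4 (1422077_at). The share of all probe sets called was not counted for these alternative fits. Between the doses no member was called in Null mice by limma, with 5 at an unadjusted p under 0.05 (8.88% of all probe sets) and 0 by the methods' t-test, and 0% of all probe sets were called.

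In WT mice at 3 mg/kg, 2 of 14 member probe sets were called, Acot8 higher and Acot11 lower, where 0.162% of all probe sets were called (0.158% higher and 0.00415% lower). Without the doubted replicates 8 were called (7 higher), against 0.715% of all, and the 6 added were those of Acot1, Acot2, Acot3, and Acot4. Their changes were then 3.02 for Acot1, 1.61 and 1.49 for Acot2, 2.06 for Acot3, and 1.00 and 1.03 for Acot4 (limma, adjusted p between 2.36e-05 and 0.0337). The dose of 10 mg/kg gave 10 of 14 called, all higher, against 5.85% of all probe sets called higher and 10.4% called in either direction. They came from 7 genes, the 4 type I members with Acot7, Acot8, and Acot12, and the median change of the members was 0.92 against -0.02 for all kept probe sets. Without the doubted replicates the count was also 10 (24.5% of all), with Acot11 (1429267_at) lower in place of Acot12 (1449457_at). For 10 against 3 mg/kg 5 were called, all higher (5.25% of all, 2.75% higher), and 9 without the doubted replicates (11.5% of all), which added Acot1, Acot3, and both Acot4 probe sets. The treated and control arrays did not overlap for 10 of 14 member probe sets in WT mice at 10 mg/kg (7.43% of all) and for 5 of 14 in Null mice (7.3% of all).

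**Figure D3:**
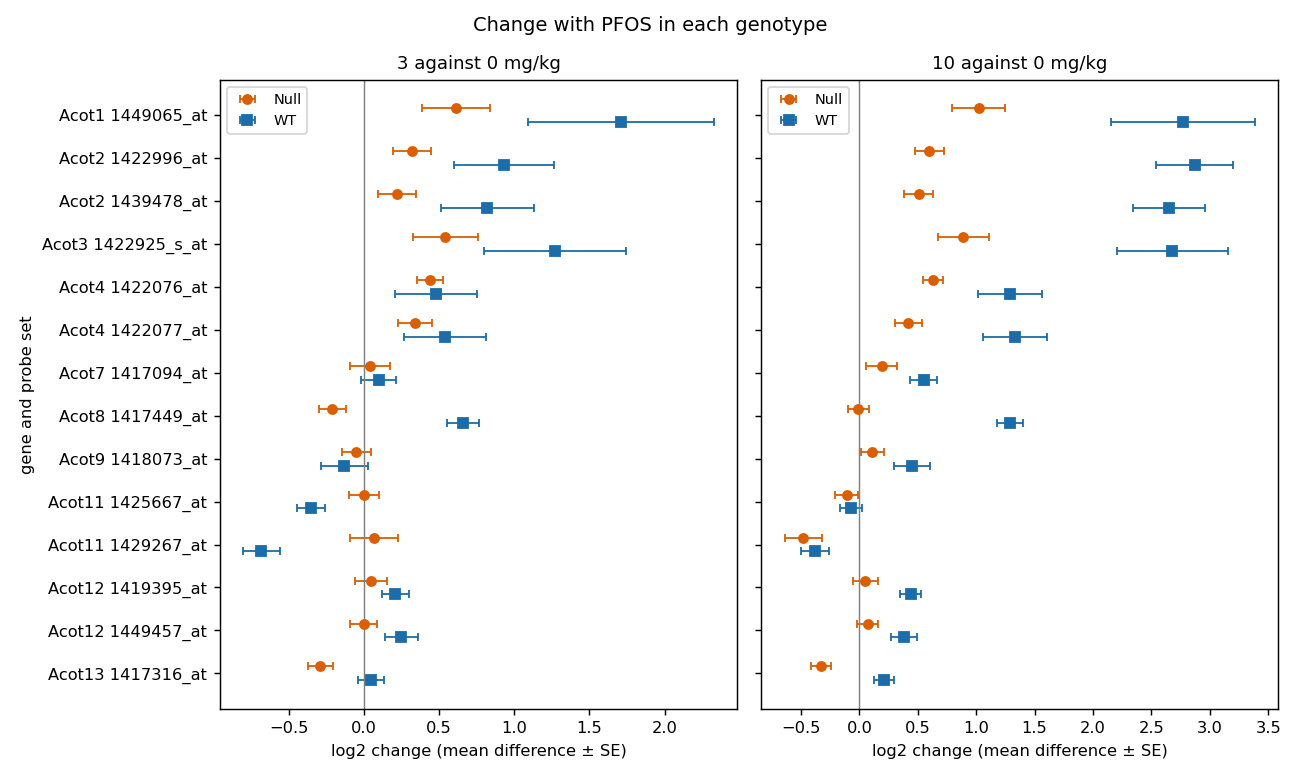
Log2 change of the 14 kept member probe sets for 3 against 0 mg/kg and 10 against 0 mg/kg, in Null mice (circles) and WT mice (squares), with bars of 1 SE from limma. At 10 mg/kg the WT changes of Acot1, Acot2, and Acot3 lie between 2.65 and 2.87 and the Null changes of the same probe sets between 0.51 and 1.02.

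Whether the response itself differed between genotypes was tested as the Null change minus the WT change in 1 fit of all arrays. At 3 mg/kg 1 of 14 member probe sets was called (0.818% of all, 0.656% lower), Acot8, with a difference of -0.87 ± 0.143 (SE) (limma, adjusted p = 0.00972). At 10 mg/kg 4 were called (2.95% of all), all lower (2.4% of all). They were Acot8 at -1.30 (limma, adjusted p = 3.18e-06), Acot2 at -2.27 and -2.14 (limma, adjusted p = 0.000879 and 0.000818), and Acot13 at -0.55 (limma, adjusted p = 0.0112). The Acot1 difference was -1.75 with a 95% interval of -3.18 to -0.33 (limma, adjusted p = 0.188), that of Acot3 was -1.79 (limma, adjusted p = 0.0714), and those of Acot4 were -0.67 and -0.91 (limma, adjusted p = 0.262 and 0.108).

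Without the doubted replicates 4 probe sets were called at 3 mg/kg (0.141% of all) and 8 at 10 mg/kg (4.05% of all), all lower. Acot1 then differed by -3.06 (limma, adjusted p = 2.9e-05), Acot3 by -2.58 (limma, adjusted p = 0.0022), and Acot4 by -1.18 and -1.40 (limma, adjusted p = 0.00155 and 0.00125) at 10 mg/kg. At 3 mg/kg the differences were then -2.40 for Acot1, -1.30 and -1.27 for Acot2, and -0.72 for Acot8 (limma, adjusted p = 0.0106, 0.0227, 0.00272, and 0.0368), so Acot1 and Acot2 as well as Acot8 were called at both doses. Acot2 and Acot8 were called at 10 mg/kg either way, as was Acot13, at -0.54 without them (limma, adjusted p = 0.0222).

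**Figure D4:**
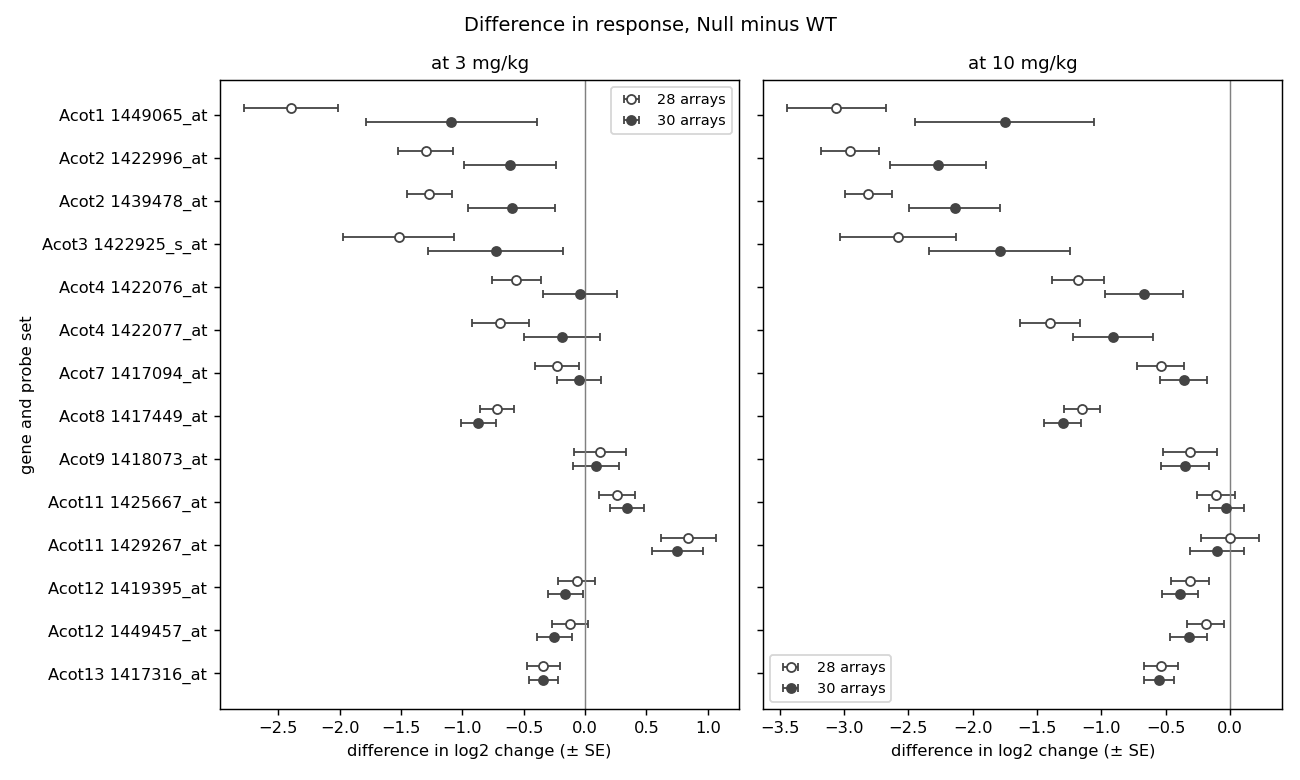
Difference in response of the 14 kept member probe sets, computed as the Null log2 change minus the WT log2 change, at 3 and 10 mg/kg, with bars of 1 SE from limma. Open points leave out replicates 4 and 5 of WT 0 mg/kg (28 arrays) and filled points use all 30 arrays. Leaving these replicates out moves Acot1 to -3.06 with 28 arrays, against -1.75 with 30 arrays, and Acot8 to -1.15, against -1.30, at 10 mg/kg.

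Set side by side at one dose, Null and WT controls gave no called member (limma, 3 at an unadjusted p under 0.05, which 15.2% of all passed), where 1.25% of all probe sets were called. Without the doubted replicates 5 were called (1.89% of all), all higher in Null controls. These were Acot1 by 2.23 (limma, adjusted p = 2.33e-05), Acot2 by 0.79 and 0.78 (limma, adjusted p = 0.00981 and 0.00144), and Acot4 by 0.85 and 0.98 (limma, adjusted p = 0.00144 and 0.00158). Acot1 then stood at 9.14 ± 0.267 in Null controls against 6.90 ± 0.945 (SD over 3 arrays) in WT control replicates 1 to 3. With both genotypes at 3 mg/kg, 5 member probe sets were called, 2 higher and 3 lower in Null mice (9.75% of all, 5.4% higher and 4.35% lower). Acot11 was higher in Null mice by 1.23 and 0.62 (limma, adjusted p = 2.78e-06 and 0.00013), and Acot8 was lower by 1.07 on the log2 scale (limma, adjusted p = 8.46e-08). Smaller differences were those of Acot12, by 1449457_at, at -0.32 and Acot13 at -0.26 (limma, adjusted p = 0.0405 and 0.044). Without the doubted replicates 6 were called (10.4% of all), with both Acot2 probe sets added at -0.50 and -0.49 and Acot13 lost (limma, adjusted p = 0.0291, 0.00984, and 0.0501). The 2 groups fitted alone also gave 5 calls, with both Acot2 probe sets (limma, adjusted p = 0.0239 and 0.0257) in place of Acot12 and Acot13 (limma, adjusted p = 0.0802 and 0.113). The share of all probe sets called was not counted for this fit.

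Between genotypes at 10 mg/kg, 9 of 14 member probe sets from 7 genes were called (12% of all), all lower in Null mice (6.3% of all). The arrays of the genotypes did not overlap for 8 of the 14 (7.91% of all), 6 of them called and the others Acot1 and Acot4 (1422076_at). The differences were -2.16 and -2.03 for Acot2, -1.50 for Acot8, -1.36 for Acot3, -0.47 for Acot13, -0.45 for Acot9, -0.41 and -0.40 for Acot12, and -0.39 for Acot7. Their adjusted p lay between 2.66e-11 for Acot8 and 0.0482 for Acot7 (limma). Acot1 differed by -0.83 (limma, adjusted p = 0.299) and Acot4 by -0.33 and -0.42 (limma, adjusted p = 0.342 and 0.227). Leaving out the doubted replicates, which are not in this comparison but enter the shared spread, gave 10 calls (13.4% of all), the added one being Acot1 (limma, adjusted p = 0.029). The Acot7 call held in 9 of 30 runs with 1 array left out. With these 2 groups fitted alone 7 were called, where Acot7, Acot9, and Acot12 (1419395_at) were lost (limma, adjusted p = 0.175, 0.107, and 0.102) and Acot1 was added (limma, adjusted p = 0.0216). The share of all probe sets called was not counted for this fit either.

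Other genes of acyl-CoA metabolism were counted in the same fits, in lists chosen with earlier results of these data known. Each gene stood by its probe set of lowest p for any dose effect. Of 9 other thioesterases measured (Acot6, Them4, Them6, Baat, Ppt1, Ppt2, Mblac2, Lypla1, and Lypla2), 0 were called higher in either genotype at 10 mg/kg by limma (1 was higher in each at an unadjusted p under 0.05), and Baat, which joins bile acids to amino acids, fell by 0.32 in WT mice (limma, adjusted p = 0.0319), a call lost when the probe set with the highest mean stood for each gene. Acot6, a type I gene that is no member, changed by 0.41 in WT mice at 10 mg/kg (limma, adjusted p = 0.0945) and was called without the doubted replicates (limma, adjusted p = 5.18e-05). In the acyl-CoA synthetases, which make the substrate of the thioesterases, 1 of 14 rose in Null mice and 7 of 14 in WT mice, with Acsl3 up by 0.76 and Slc27a4 by 0.39 there (limma, adjusted p = 0.000894 and 0.00274).

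Peroxisomal oxidation genes rose in 3 of 17 cases and fell in 2 in Null mice, and 10 of 17 rose in WT mice. Ehhadh, the peroxisomal bifunctional enzyme, rose by 2.12 in WT mice at 10 mg/kg (limma, adjusted p = 4.26e-06, and 1.5e-09 for 2.48 without the doubted replicates) and changed by 0.60 in Null mice (limma, adjusted p = 0.0705). Mitochondrial oxidation genes rose in 2 of 16 cases in Null mice and 14 of 16 in WT mice (11 without the doubted replicates). Acadl, the long-chain acyl-CoA dehydrogenase, rose in both genotypes, by 0.67 in Null and 0.75 in WT mice (limma, adjusted p = 0.0036 and 4.26e-06). Acyl-CoA binding proteins rose in 0 of 6 cases in Null mice by limma (1 of 6 changed at an unadjusted p under 0.05, lower) and in 2 of 6 in WT mice, the liver fatty acid binding protein Fabp1 by 0.31 and the acyl-CoA carrier Dbi by 0.45 (limma, adjusted p = 0.0097 and 0.0202), or by 0.29 and 0.61 without the doubted replicates. The WT counts without the doubted replicates were 7 higher and 1 lower for the synthetases, 10 and 1 for the peroxisomal list, 2 and 1 for the binding proteins, and 1 and 1 for the other thioesterases. The share of all named genes was not counted for that fit. It called 24.5% of all probe sets in either direction, against 10.4% with all arrays. Over all named genes and with all arrays, 4.15% were called higher and 5.08% lower in Null mice at 10 mg/kg, and 7.63% higher and 5.83% lower in WT mice. The median changes at this dose were -0.03 in Null and 0.02 in WT mice for the other thioesterases, 0.13 and 0.33 for the synthetases, 0.19 and 0.53 for the peroxisomal list, 0.14 and 0.60 for the mitochondrial list, and -0.17 and 0.13 for the binding proteins, where the median of all genes was 0 in both genotypes.

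**Figure D5:**
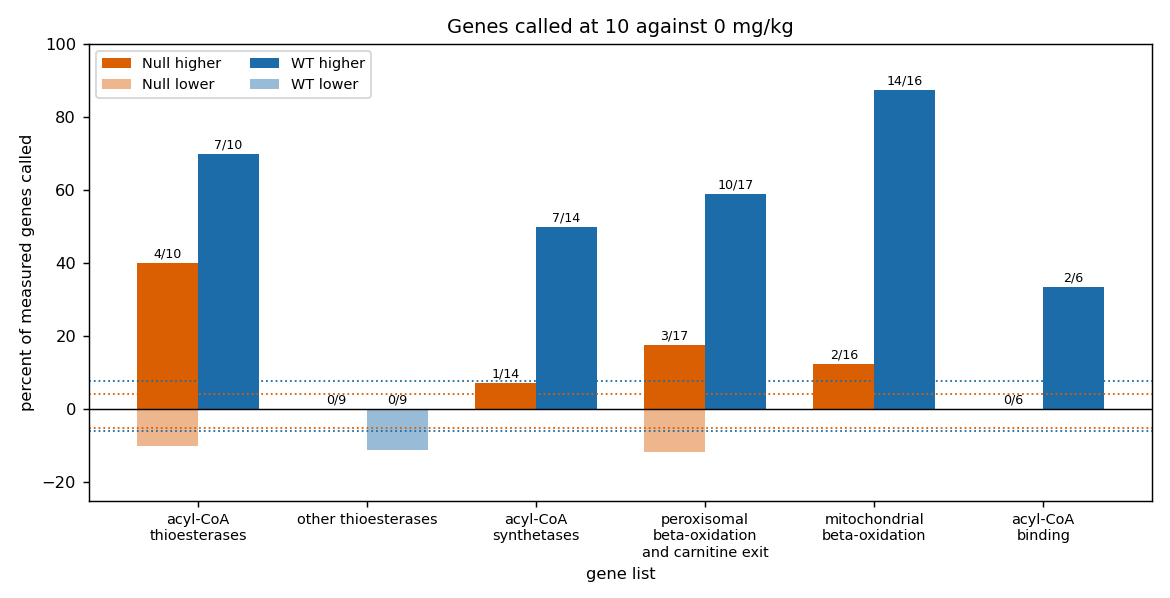
Percent of measured genes called higher (above 0) and lower (below 0, pale) for 10 against 0 mg/kg in Null mice (left bars) and WT mice (right bars), with the count of genes called higher above each bar and dotted lines at the percent of all named genes called in that genotype. The acyl-CoA thioesterases had 4 of 10 genes higher in Null and 7 of 10 in WT mice, a gene counting if any of its kept probe sets was called. For the other lists and the dotted lines each gene stood by its probe set of lowest p for any dose effect. Other thioesterases had 0 of 9 in both.

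Across the 30 arrays the named genes whose values ran most nearly with a member were taken by Pearson correlation with its probe set of the highest mean. Acot8 ran with Pex11a (r = 0.974) and Vnn1 (r = 0.970), Acot2 with Amn (r = 0.954), Prune1 (r = 0.929), and Ehhadh (r = 0.918), and Acot1 with Pctp (r = 0.937). Acot3 and Acot4 were each other's nearest gene (r = 0.916). Acot13 ran with Tbca (r = 0.933), Uqcr10 (r = 0.924), and Ndufb3 (r = 0.914), the last pair being respiratory chain subunits, and Acot7 with Abhd17a (r = 0.933). Looser partners were Anxa2 for Acot9 (r = 0.888), Txnip for Acot12 (r = 0.855), and Serpinb1a for Acot11 (r = 0.830). These values are a description over 30 arrays that share 6 groups.

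Markers of cell types were counted at 10 against 0 mg/kg as well. Over all probe sets, 3.88% were called lower and 3.16% higher in Null mice at this dose. In WT mice 10.4% were called in either direction and 5.85% higher. Over all named genes, each by its probe set of lowest p, 5.83% were called lower in WT mice. Kupffer cell and macrophage markers averaged 8.81 at Null 10 mg/kg against 9.17 in Null controls, with 3 of 12 lower. They averaged 8.63 at WT 10 mg/kg against 8.96 in WT controls, with 0 of 12 called by limma. Their median change was -0.37 in Null and -0.33 in WT mice. Hepatocyte markers averaged 13.64 at Null 10 mg/kg against 13.63 in Null controls and 13.41 at WT 10 mg/kg against 13.65 in WT controls, with 4 of 8 lower in WT mice. Stellate cell and fibroblast markers averaged 8.36 at Null 10 mg/kg against 8.57 in Null controls and 8.18 at WT 10 mg/kg against 8.48 in WT controls, with 2 of 6 lower in WT mice. Endothelial markers averaged 8.28 at Null 10 mg/kg against 8.17 in Null controls, with 2 of 8 higher but a median change of -0.1. In WT mice they averaged 8.19 at 10 mg/kg against 8.22 in WT controls. Lymphocyte markers had 0 of 5 called by limma in either genotype, with a median change of -0.06 in Null and -0.3 in WT mice. Cholangiocyte markers had 0 of 3 called by limma in either genotype, with a median change of 0.02 in both. The 1 adipocyte marker tested, Fabp4, was higher by 0.71 at WT 10 mg/kg. These WT control means take in all 5 arrays. The part of these cells in the thioesterase changes was not tested.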

How the data were processed

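Liver RNA of 30 mice was measured on 30 arrays. The authors processed them together with RMA, which corrects background and quantile normalizes, and deposited log2 values for all 45101 probe sets. Group and dose came from the sample labels, and the members and gene lists were chosen with earlier results of these data known. After removal of 64 control probe sets, 24069 of 45037 passed the median rule in 5 or more arrays, since the methods mention a filter on weak signal without its rule. Gene names came from the platform annotation with symbols updated by Entrez number (34958 probe sets with 1 gene, 932 with several, 9211 with none), and a probe set with several genes named none. The table held 0 columns of other samples. Doses were compared within each genotype's 15 arrays, and genotypes and responses in all 30, with limma 3.58.1 in R 4.3.3 and Benjamini-Hochberg adjustment. Named were all members, Ppara and Cyp2b10, up to 3 genes per list by the smallest p over dose in WT, and the 5 genes nearest each member by correlation. Alternatives were no or a stricter filter, arrays shifted to 1 median, limma's trend and robust spread, a replicate block, all arrays or only the 2 groups in the fit, the methods' t-test, and each array or both doubted arrays left out. The t-test was read with Benjamini-Hochberg adjustment, where the methods took an unadjusted p of 0.0025 or less. The tests were tried on simulated data. Labelling and hybridization ran as 1 block per the methods, so no batch was tested, and the number of arrays limits the precision. Acot5, Acot10, and some other list genes were not analysed here. Protein sequences were not used here. Figures used matplotlib 3.10.9.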

Additional observations from a re-analysis of the deposited data

Results flagged for a closer look

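Dixon's test of single arrays singled out 4 of 90 sets of 5 arrays, where chance gives about 1 in 20. They were Acot4 (1422076_at) in WT 3 mg/kg replicate 2, at 9.50 with the next array at 9.00, and Acot9 in WT 0 mg/kg replicate 3, at 6.95 with the next at 6.54. The others were the lowest arrays for Acot12, 8.57 in Null 10 mg/kg replicate 1 (1419395_at, next 9.07) and 11.32 in WT 10 mg/kg replicate 4 (1449457_at, next 11.47). Responses differed between Null and WT by the test of the difference for Acot8 at 3 mg/kg (-0.87) and for Acot2 (-2.27 and -2.14), Acot8 (-1.30), and Acot13 (-0.55) at 10 mg/kg.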

How the results depend on the processing

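No called member changed direction under any alternative. The share of all probe sets called was counted for the main fits and for those without the doubted replicates, and not for the other alternatives. The count for WT 3 against 0 mg/kg, 2, was 1 with a replicate block and 8 without replicates 4 and 5 of WT 0 mg/kg. By the methods' t-test it was 0 after adjustment and 2 at the methods' unadjusted limit of 0.0025. For WT 10 against 3 mg/kg, 5 became 3 with no filter, 3 with a replicate block, 3 by the t-test, 8 with all 30 arrays in the fit, and 9 without these replicates. For Null 10 against 0 mg/kg, 7 became 2 with all 30 arrays in the fit, where Acot13 remained and Acot11 was added, and 6 with all groups fitted but these replicates left out, which was chosen after seeing the data. The same setting gave 2 in place of 1 for Null 3 against 0 mg/kg. Without these replicates the difference in response gave 4 in place of 1 at 3 mg/kg and 8 in place of 4 at 10 mg/kg, and Null against WT gave 5 in place of 0 at 0 mg/kg. Null against WT at 3 mg/kg, 5, was 3 with no filter and 3 with each array shifted to 1 median. With the probe set of the highest mean for each gene, the binding proteins called higher in WT mice at 10 mg/kg were 1 in place of 2. The cause was not tested.

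Leaving out 1 array at a time, the counts ran from 0 (without WT 3 mg/kg replicate 1, 3, or 5) to 2 for WT 3 against 0 mg/kg, 9 to 12 for WT 10 against 0 mg/kg, 3 to 7 for WT 10 against 3 mg/kg, 1 to 2 for Null 3 against 0 mg/kg, 4 (without Null 0 mg/kg replicate 4) to 8 for Null 10 against 0 mg/kg, and 0 to 0 for Null 10 against 3 mg/kg. For the difference in response they ran from 1 to 2 at 3 mg/kg and from 4 to 7 (without WT 0 mg/kg replicate 5) at 10 mg/kg, and for Null against WT from 0 to 0, 3 to 5, and 6 (without Null 10 mg/kg replicate 3) to 9 at 0, 3, and 10 mg/kg. Replicate numbers name single animals. Same-numbered arrays correlated at -0.239 to 0.357 in their deviations from group means (24 of 75 pairs over 0.1), so the block result stands here only.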
